A study of Mus musculus with 14 samples.

Results

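The genes described here are the 82 mouse genes of cytosolic ribosomal proteins, out of 36536 genes with a deposited count. They were taken by symbol among protein-coding genes: Rpl or Rps followed by a digit, with Rpsa, Rplp0, Rplp1 and Rplp2 added and the Rps6k kinases, named pseudogenes and predicted genes left out. Of these, 50 carry an Rpl and 32 an Rps symbol. The rule also took 8 paralogues (Rpl3l, Rpl7l1, Rpl10l, Rpl22l1, Rpl36al, Rpl39l, Rps27l and Rps27rt) and Rps19bp1, which encodes a binding partner of the Rps19 protein and no ribosomal protein. Rps13, Rpl24, Rpl41 and Rps27 were not analysed here. A filter on low counts kept 78 of the 82 genes for testing in each fit. The other 4 were paralogues that were nearly silent: Rpl10l had 0 counts in all 14 libraries, and Rpl39l, Rps27rt and Rpl3l reached at most 1, 2 and 3 counts in any library.

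Ribosomal proteins assemble with ribosomal RNA into a small subunit, which decodes the messenger RNA, and a large subunit, which joins the amino acids. Their genes are transcribed in nearly every cell, and most of their messenger RNAs begin with a run of pyrimidines, the 5′ terminal oligopyrimidine tract, through which growth signals control translation. In the gut crypt, dividing progenitors and secretory cells both make protein at a high rate. Mammalian genomes hold many processed pseudogenes of these genes, so a short read from a ribosomal protein messenger RNA can match several places.

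RNA was sequenced from 14 libraries in 6 groups, 3 in colon and 3 in ileum. KO crypts (2 libraries per tissue) came from mice aged 6 to 8 weeks with both Atoh1 alleles floxed and CreERT2, a tamoxifen-inducible Cre recombinase, under the Villin promoter, which is active throughout the intestinal epithelium, with no induction schedule in the labels. WT crypts (2 per tissue) came from littermates with 1 floxed and 1 wild-type allele and the same Cre, so the controls carry the recombinase as well. GFP cells (3 per tissue) were live cells sorted by flow cytometry for a functional ATOH1-GFP fusion protein from crypts of homozygous fusion mice, whose age the labels do not give. The labels do not say that replicate libraries came from separate animals, so p-values measure the spread between these libraries, which may be technical.

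Atoh1, the transcription factor of the secretory lineage, was at 62.7 and 44.8 CPM (counts scaled by library size and composition) in colon WT, 5.21 and 5.91 in colon KO and 231 to 295 in colon GFP, and at 39.6 to 41.0, 0.527 to 1.02 and 196 to 323 CPM in the ileum groups, as the labels state. Gene counts per library ranged from 7478418 to 12991891. Sorted and crypt libraries differed in the kinds of RNA they held: mitochondrial ribosomal RNA was 30.0 to 44.9% of gene counts in GFP libraries and 0.136 to 0.219% in crypts, and the RNA Rn7sk, which has no poly(A) tail, was at 249.4 to 681 and 0.469 to 1.62 CPM. Of uniquely placed reads, 52.3% fell outside genes in ileum GFP 1, 24.9 to 31.9% in the other GFP libraries and 9.30 to 13.2% in crypts. Sorting, mouse line and these library properties cannot be told apart from cell type in any comparison of GFP cells with crypts. Of 8 goblet cell markers, 5 rose in colon GFP and 7 in ileum GFP against WT, and their summed level was 64580 to 70040 CPM in colon GFP, 10210 to 21810 in colon WT, 46690 to 133300 in ileum GFP and 11240 to 15400 in ileum WT. Of 7 enteroendocrine markers, which ATOH1-positive cells could also hold, 6 were lower in colon GFP and 7 in ileum GFP, and Chga was at a mean of 2.42 and 3.03 CPM there against 30.6 and 31.0 CPM in WT. Of all genes tested, 22.3% were higher and 23.6% lower in colon GFP than in WT, and 24.6% and 28.2% in ileum GFP.

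The level of a ribosomal protein gene in these counts varied widely. Over all 14 libraries, Rpl8 was at 722 CPM per kb of its reference transcript, Rpl32 at 590, Rpl4 at 498 and Rplp1 at 460 CPM per kb. Rps6 (1.55 CPM per kb), Rps23 (1.81), Rpl23a (2.33) and Rpl35 (2.50) were lowest among tested genes. Most proteins of a subunit are present in a single copy per ribosome, so this range was set beside the sequence of each transcript. Of all 82 genes, 23 were above 100 and 24 under 10 CPM per kb.

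The reference transcript of a gene was the protein-coding one with the longest coding part, and the shortest of these where several tied. It can be long: that of Rps20 has 3706 bases, of which 357 are coding. Level per kb and unique share both depend on this choice. Each reference transcript was split into windows of 50 bases. A window was called unique when no transcript of another gene in the GENCODE M21 annotation held it on either strand. Over the 82 genes the unique share ran from 4.91% (Rpl35) to 100% of windows, with a median of 41.3%. The 31 tested genes with at least 50% unique windows had a median level of 144 CPM per kb, and the lowest of them was at 4.08. The 14 tested genes with under 20% unique windows had a median of 9.64 CPM per kb, from 1.55 to 87.0. Across the 78 tested genes, Spearman's rho of the unique share with the level per kb was 0.5, a description over genes that share the same libraries. Rps6, the substrate of the S6 kinases, had 15.4% unique windows and at most 21 counts in any library, whereas Rpl8 had 92.1% and 1 annotated pseudogene that shared a window. Between 29.2 and 43.0% of the alignments summarised for each library had more than 1 site. These alignments were counted in a class of their own, apart from the gene rows. How this bears on the level of each gene was not tested.

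**Figure D1:**
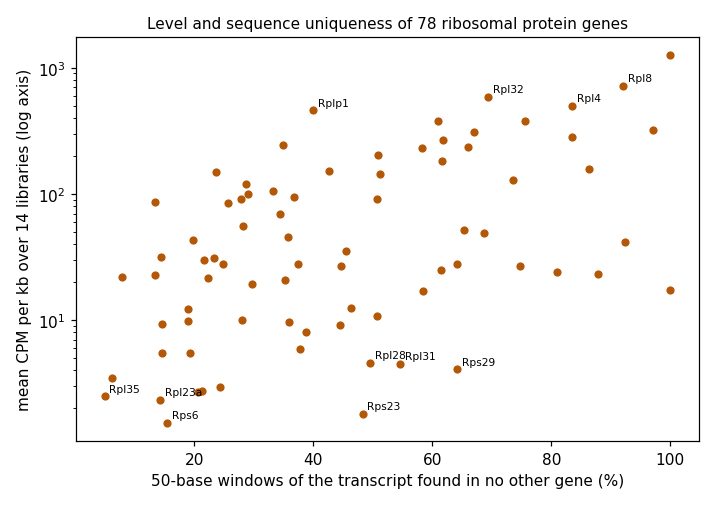
Each point is 1 of the 78 tested genes, with the percent of 50-base windows of its reference transcript found in no other annotated gene on the x axis and its mean CPM per kb over 14 libraries on a log y axis. Rpl8, at 92.1% and 722 CPM per kb, lies at the upper right, and Rps6, at 15.4% and 1.55, at the lower left, while Rps29, with 64.2% unique windows, is at only 4.08 CPM per kb.

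The order of the genes was nearly fixed in crypts. Rpl8, Rpl4 and Rplp1 were among the 4 highest per kb in all 4 crypt groups. Rpl32, Rpl8 and Rpl39 were among the 4 highest in colon GFP, and Rpl32, Rpl8 and Rpl4 in ileum GFP. Rpl8, a large-subunit protein near the catalytic centre, was at 580 and 592 CPM in colon WT, 541, 681 and 1058 in colon GFP, 607 and 646 in ileum WT and 472, 529 and 556 in ileum GFP. Its colon groups overlapped, while all 3 ileum GFP libraries lay below both ileum WT libraries. The log2 fold change of Rpl8 was 0.38 in colon (edgeR adjusted p = 0.212) and -0.27 in ileum (adjusted p = 0.344).

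The first comparison asked what loss of ATOH1 in the epithelium did to these genes. No ribosomal protein gene passed the test in KO against WT crypts of either tissue, by edgeR's quasi-likelihood test at an adjusted p under 0.05 over all genes. In colon, 0.153% of all 14415 genes tested were called. There 3 ribosomal protein genes had an unadjusted p under 0.05, as did 7.69% of all genes, the smallest adjusted p was 0.601, and DESeq2 called 0. In ileum, 1.22% of all genes were called, 0 ribosomal protein genes had an unadjusted p under 0.05 (13.4% of all genes did), the smallest adjusted p was 0.377, and DESeq2 called 0.

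Median log2 fold changes over the 78 genes were -0.06 in colon and -0.06 in ileum, against 0.01 and 0.01 over all genes tested. They ran from -0.61 to 0.89 in colon and from -0.39 to 0.57 in ileum, and the median standard error of a gene was 0.15 in both. Rpl30, Rpl36al and Rpl13 had the smallest p-values in colon. Rpl30, a large-subunit protein, was at 59.5 and 56.7 CPM in colon WT and 51.1 and 45.2 in colon KO. Rpl36al, a paralogue of Rpl36a, was at 23.4 and 22.6 in WT and 20.5 and 17.0 in KO, and Rpl13 at 13.5 and 13.9 in WT and 11.2 and 10.2 in KO. These pairs of groups did not overlap, but none of the 3 genes passed the adjusted test (adjusted p = 0.601, 0.609 and 0.636 in edgeR). KO libraries lay wholly above WT for 7 genes and wholly below for 22 in colon, where 22.5% of all genes lay above and 20.1% below. In ileum the counts were 2 and 18, against 18.0% and 21.9% of all genes. The KO effect did not pass a test of difference between tissues for any ribosomal protein gene (0.00694% of all genes called). For that difference 1 gene, Rpl11, had an unadjusted p under 0.05, against 3.91% of all genes, and DESeq2 called 0.

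Rplp0, which anchors the stalk of the large subunit where elongation factors bind, differed widely within crypt groups. It was at 303 and 465 CPM in colon WT 1 and 2, at 434 and 176 CPM in colon KO 1 and 2, at 316 and 467 CPM in ileum WT 1 and 2, and at 417 and 193 CPM in ileum KO 1 and 2. Colon and ileum libraries of the same genotype and number were thus nearly equal, while libraries of 1 group differed. On the log2 scale, relative to the crypt mean of each tissue, the means of the 4 colon and ileum pairs spanned 1.34, and no pair differed by more than 0.10. It was the only ribosomal protein gene of the 78 with a span over 1 and within-pair differences under 0.2, limits chosen after its values were seen. Across all 14415 genes tested, 0.222% met both, among them the Y-linked genes Ddx3y and Eif2s3y, whose pair means spanned 6.21 and 6.54. Crypt libraries thus differed widely in Y-linked RNA, and the fits held no term for sex. The labels do not state that colon and ileum libraries of 1 number came from the same animal. KO against WT gave Rplp0 no call in colon or ileum.

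Colon and ileum WT crypts were compared next. No ribosomal protein gene was called, whereas 19.9% of all genes were. Of the 78, 4 had an unadjusted p under 0.05 (Rps27l, Rpl27a, Rpsa and Rpl7l1), against 33.1% of all genes, and DESeq2 called 0. Rps27l, a paralogue of Rps27 that p53 induces, had the smallest adjusted p, 0.0638, with 43.0 and 40.7 CPM in colon WT and 50.3 and 72.9 in ileum WT. All colon values lay below both ileum values, and the log2 fold change was -0.55 (SE 0.17). The median over the 78 genes was -0.11, and 60 of them were lower in colon. Libraries did not overlap for 5 genes higher and 26 lower in colon, against 28.6% and 30.1% of all genes.

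Of the 78 ribosomal protein genes tested, 59.0% were called in GFP cells against WT crypts in colon and 57.7% in ileum. The ileum share was near that of all genes, and more of the 78 rose than fell in each tissue. In colon 40 genes rose and 6 fell of 78, where 45.9% of all 15274 genes were called, 22.3% higher and 23.6% lower. In ileum 35 rose and 10 fell, where 52.8% of all genes were called, 24.6% higher and 28.2% lower. The median log2 fold change over the 78 genes was 0.66 in colon and 0.72 in ileum, against 0.01 and -0.06 over all genes tested. In bulk RNA, a change in the mix of cells and a change in RNA per cell cannot be told apart. GFP libraries lay wholly above WT for 47 genes and wholly below for 9 in colon, against 32.5% and 34.6% of all genes. In ileum this held for 46 and 17 genes, against 30.9% and 34.0%.

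**Figure D2:**
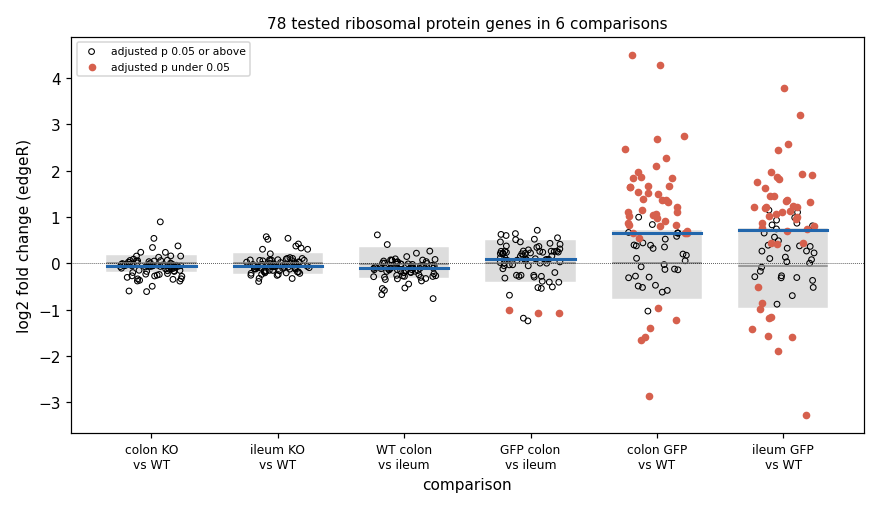
Points are the edgeR log2 fold changes of the 78 tested genes in 6 comparisons, filled where the adjusted p was under 0.05; grey boxes span the middle 50% of all genes tested with their median, and blue lines are the medians of the 78. The 4 comparisons on the left hold 0, 0, 0 and 3 called genes around medians of -0.06, -0.06, -0.11 and 0.09, and the comparisons of GFP with WT have medians of 0.66 and 0.72.

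Across tissues, 33 genes rose in both, 5 fell in both, 25 were called in neither, 8 in colon but not ileum and 7 in ileum but not colon, and 0 were called in opposite directions. Of all genes, 16.3% rose and 18.2% fell in both. Each tissue has its own WT libraries, and the sign of the log2 fold change was the same in both tissues for 72 of the 78. By subunit, 25 of 44 large-subunit genes rose and 3 fell in colon, and 22 rose and 3 fell in ileum. Of 29 small-subunit genes, 12 rose and 2 fell in colon and 10 rose and 6 fell in ileum. Paralogues and Rps19bp1 are left out of these counts.

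**Figure D3:**
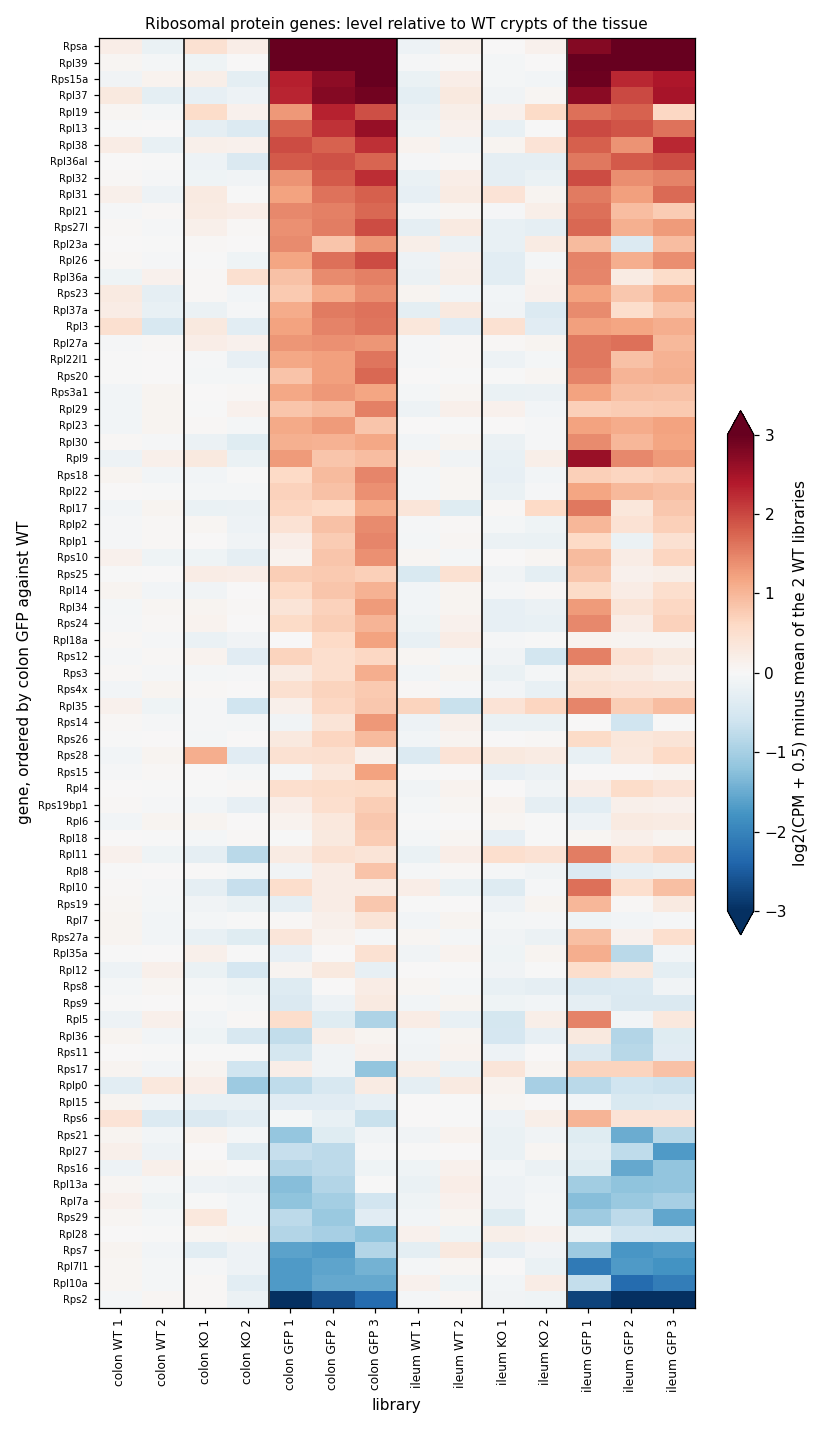
Rows are the tested genes, with 1 not shown, ordered by the colon GFP against WT log2 fold change, and columns the 14 libraries; colour is log2(CPM + 0.5) minus the mean of the 2 WT libraries of the tissue, with the scale ending at 3 in both directions. Crypt columns are pale, and the GFP columns run from Rpsa at the top, with log2 fold changes of 4.50 in colon and 3.20 in ileum, to Rps2 at the bottom, with -2.88 and -3.27.

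The largest rise in colon was in Rpsa, a small-subunit protein also known as the laminin receptor precursor. It was at 2.60 and 1.85 CPM in colon WT and at 28.95, 43.0 and 79.3 CPM in colon GFP, and at 3.36 and 4.24 in ileum WT and 28.1, 36.1 and 40.7 in ileum GFP. Every GFP library exceeded every crypt library. The log2 fold changes were 4.50 (SE 0.42) in colon and 3.20 (SE 0.39) in ileum, with edgeR adjusted p of 3.26e-06 and 1.8e-05.

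Rpl39, a short protein at the exit tunnel of the nascent chain, had the largest rise in ileum, and started from a higher level. It was at 23.3 and 21.7 CPM in colon WT, 279, 411 and 621 in colon GFP, 22.6 and 23.5 in ileum WT, and 407, 246 and 299 in ileum GFP. All crypt libraries, KO included, lay between 20.4 and 23.5 CPM, so the groups stood far apart. The log2 fold changes were 4.28 (SE 0.33) and 3.78 (SE 0.32), with edgeR adjusted p of 6.54e-07 in colon and 9.66e-07 in ileum.

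Rps15a, of the small subunit, rose by 2.75 and 2.57 on the log2 scale in colon and ileum. Its values were 35.8 and 41.9 CPM in colon WT against 198, 251 and 334 in GFP, and 35.7 and 47.1 CPM in ileum WT against 318, 199 and 221 in GFP. Rpl37, of the large subunit, went from 16.2 and 10.5 to 65.6, 90.6 and 99.8 CPM in colon and from 10.4 and 15.8 to 87.1, 52.6 and 74.0 CPM in ileum. Its log2 fold changes were 2.68 and 2.44, and neither gene's groups overlapped (edgeR adjusted p from 5.11e-06 to 1.12e-05 for both genes in both tissues). Rpl19 came next in colon, at 2.47 (adjusted p = 0.00275), but at 0.732 ± 0.0676 CPM in WT (SD, n = 2) and 4.12 ± 1.53 in GFP (SD, n = 3) it rested on few counts, and in ileum its call at 1.91 (adjusted p = 0.011) was lost without ileum WT 1 (1.63, adjusted p = 0.082). Rpl38 came next in ileum, where it rose by 1.96 on the log2 scale from 4.004 ± 0.486 to 15.7 ± 4.95 CPM (adjusted p = 0.00011).

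Rpl32, of the large subunit, with 69.4% unique windows, was an abundant gene that rose. Its values were 149 and 144 CPM in colon WT, 134 and 137 in colon KO, and 373, 522 and 685 in colon GFP. In ileum it was at 142 and 188 CPM in WT, 136 and 143 in KO, and 634, 430 and 456 in GFP. Each GFP value was above all crypt values, with log2 fold changes of 1.85 (SE 0.26) and 1.62 (SE 0.25) and edgeR adjusted p of 7.14e-05 and 0.000142. Rpl13, Rpl26, Rpl27a, Rpl23, Rps20 and Rps3a1 also rose in both tissues.

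Rps2, at the entry of the messenger RNA channel, had the largest fall. It was at 44.9 and 48.2 CPM in colon WT and at 3.41, 6.98 and 8.98 in colon GFP, and at 51.1 and 55.0 in ileum WT and 7.33, 4.90 and 4.43 in ileum GFP. No GFP value came near a crypt value, and the KO crypts lay at 41.1 to 49.5 CPM. The log2 fold changes were -2.88 (SE 0.28) and -3.27 (SE 0.28), with edgeR adjusted p of 4.02e-06 and 1.17e-06.

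Rps7, a small-subunit protein that can bind Mdm2, fell from 24.4 and 21.8 to 7.24, 6.86 and 12.4 CPM in colon and from 18.7 and 27.9 to 10.4, 6.49 and 6.86 CPM in ileum. Rpl7l1, a paralogue of Rpl7, fell from 41.9 and 39.2 to 12.1, 13.2 and 14.8 CPM in colon and from 47.6 and 51.4 to 10.9, 14.9 and 13.9 CPM in ileum. Rpl10a, a protein of the mobile stalk on the other flank of the large subunit, fell from 23.0 and 21.4 to 6.49, 7.36 and 7.33 CPM in colon and from 31.0 and 25.5 to 17.0, 5.26 and 6.29 CPM in ileum. None of these groups overlapped with its WT group. The log2 fold changes were -1.40 and -1.57 for Rps7, -1.60 and -1.90 for Rpl7l1, and -1.65 and -1.60 for Rpl10a, with edgeR adjusted p of at most 0.00215. Rpl7a, with 121 pseudogenes sharing a window, fell by 0.96 and 1.18. Rpl28 fell in colon alone by the test, by 1.22 (adjusted p = 0.00554), against -0.52 in ileum (adjusted p = 0.149), and the difference between these effects did not pass the test (adjusted p = 0.429). Rpl13a fell in ileum by 1.16 (adjusted p = 0.00278), with -0.62 in colon (adjusted p = 0.0737). Rps29 fell in ileum by 1.42 from 2.67 ± 0.220 to 0.981 ± 0.389 CPM (adjusted p = 0.0225), a call lost without ileum GFP 3 (-1.15, adjusted p = 0.073), ileum WT 1 (-1.52, 0.0512) or ileum WT 2 (-1.35, 0.0763).

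**Figure D4:**
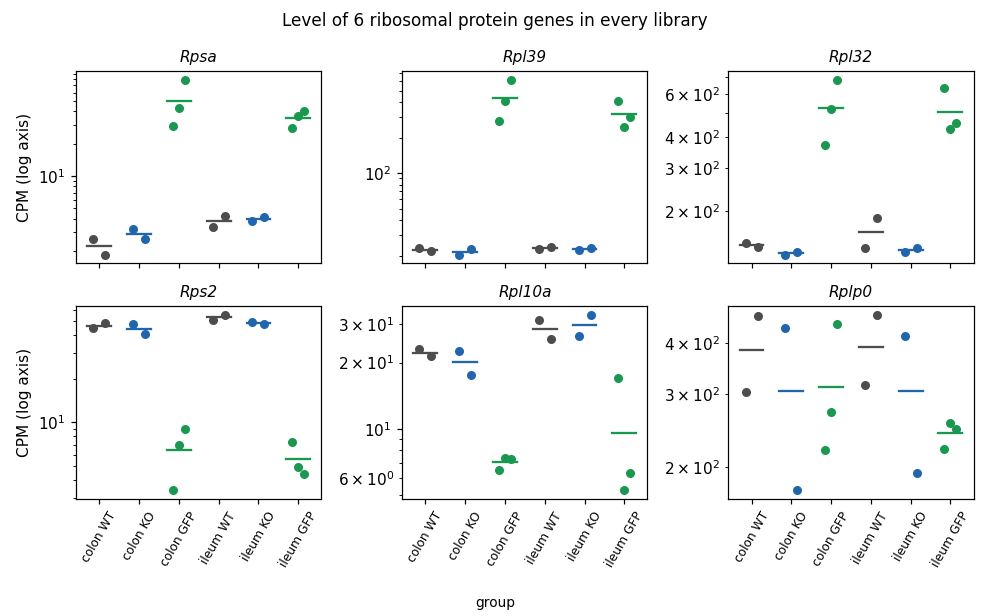
CPM on a log axis in every library (points) with the group mean (line) for 6 genes; grey is WT, blue KO and green GFP. Rpsa, Rpl39 and Rpl32 are higher in all 6 GFP libraries than in any crypt library, Rps2 and Rpl10a lower, and Rplp0 has high and low libraries within the crypt groups, from 176 to 467 CPM.

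Among the paralogues, 3 of the 4 tested rose and 1 fell in each tissue. Rpl36al went from 23.0 ± 0.528 to 83.4 ± 4.99 CPM in colon and from 25.7 ± 0.846 to 90.6 ± 11.8 CPM in ileum, with log2 fold changes of 1.86 and 1.82 and adjusted p of 1.62e-06 and 1.14e-06 in edgeR. Its partner Rpl36a, with 14.5% unique windows, was at 1.47 CPM in colon WT and 4.30 in colon GFP, and its log2 fold change of 1.53 had an adjusted p of 0.017. That call was lost without colon WT 1 (1.36, adjusted p = 0.128) or colon WT 2 (1.69, 0.0695). Rpl22l1 rose by 1.36 and 1.22 and its partner Rpl22, at a higher level of 129 CPM in colon WT, by 1.01 and 1.02. Rps27l rose by 1.66 and 1.36, from 41.8 ± 1.60 to 132 ± 29.0 CPM in colon. Rpl7l1 fell, as above, while its partner Rpl7 was at 87.2 ± 6.22 CPM in colon WT and 100 ± 12.6 in GFP and did not pass the test (log2 0.20 and -0.08, adjusted p = 0.264 and 0.629).

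Of the stalk proteins, Rplp2 rose from 78.4 ± 1.90 to 154 ± 53.3 CPM in colon (log2 0.97, adjusted p = 0.0048 in edgeR). Rplp1 went from 189 ± 6.79 to 355 ± 156 CPM there (log2 0.91, adjusted p = 0.0239), a call lost without colon GFP 3 (0.52, adjusted p = 0.089), colon WT 1 (0.85, 0.13) or colon WT 2 (0.93, 0.0969). In ileum Rplp2 rose by 0.74 (adjusted p = 0.0181), a call lost without ileum GFP 1 (0.60, 0.0538), ileum WT 1 (0.69, 0.0916) or ileum WT 2 (0.75, 0.0661). Rplp1 had 0.32 there with an adjusted p of 0.369. Rplp0 was not called in either tissue, at -0.30 and -0.70 (adjusted p = 0.58 and 0.174). Colon GFP 3 had the highest value of the colon GFP libraries for all 3 stalk genes.

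The proteins that bind Mdm2 together with 5S RNA, Rpl5 and Rpl11, were counted at low levels. Rpl5, with few unique windows, was at 4.94 and 6.30 CPM in colon WT, 8.30, 4.24 and 2.69 in colon GFP, 8.24 and 5.82 in ileum WT and 20.5, 6.49 and 8.72 in ileum GFP, and was called in neither tissue. Rpl11 had a log2 fold change of 0.39 in colon (adjusted p = 0.383) and of 1.06 in ileum (adjusted p = 0.0236; 0.0899 without ileum GFP 1 and 0.159 without ileum WT 1). Rps19, mutated in Diamond-Blackfan anaemia, had 0.32 and 0.49, and Rps27a, made as a fusion with ubiquitin, had 0.17 and 0.56, with adjusted p from 0.0908 to 0.628. Rps6 had -0.48 in colon and 0.81 in ileum, on 0.922 ± 0.294 and 2.25 ± 0.705 CPM in GFP, and neither value passed the test.

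Many of these genes have pseudogene copies, and their counts were set beside those of the genes. Across the 78 tested genes, described here with no test, the share of unique windows had a Spearman correlation of 0.08 with the log2 fold change of GFP against WT in colon and -0.04 in ileum. The 82 genes shared a window with a median of 8 annotated pseudogenes and at most 121, and in 13 genes (among them Rpl10a, Rpl3, Rpl14, Rps16 and Rps6) the summed CPM of the pseudogenes named after them exceeded the gene's own in all 14 libraries. Rpl10a-ps1 alone went from 116 ± 3.70 CPM in colon WT to 366 ± 148 in colon GFP and from 120 ± 8.02 in ileum WT to 283 ± 19.9 in ileum GFP (log2 1.65 and 1.24, adjusted p = 0.000167 and 0.000995 in edgeR), the reverse of Rpl10a itself. Of 44 pseudogenes tested with a ribosomal protein symbol, 26 rose and 3 fell in colon GFP, and 22 rose and 4 fell in ileum GFP. The shares of all genes were 22.3% and 23.6% in colon and 24.6% and 28.2% in ileum.

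The counts of the genes were therefore summed with those of 558 annotated pseudogenes with a deposited count that share a window with them. The fit was then repeated, a step chosen after the values above were seen. Each pseudogene was added to 1 gene only, the one it shared most windows with, and 74 genes received at least 1. Of 79 summed genes, 54 rose and 4 fell in colon (45.8% of all genes called, 22.2% higher and 23.6% lower) and 45 rose and 6 fell in ileum (52.8%, 24.6% and 28.1%). The median log2 fold change was 1.01 in colon and 0.76 in ileum. In colon 44 genes were called in the same direction alone and summed, and in ileum 38.

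Rps2, Rps7, Rpl7l1 and Rpl7a were lower in GFP cells of both tissues alone and summed. Rps2 with the 38 pseudogenes added to it was at 49.3 ± 2.72 CPM in colon WT and 14.1 ± 5.21 in GFP. In ileum it was at 55.8 ± 2.25 and 13.5 ± 7.36 CPM, and the log2 fold changes were -1.82 and -2.06. Rps7 summed had -1.91 and -2.22. Rpl10a turned over: summed with 3 pseudogenes it was at 139 ± 4.91 CPM in colon WT and 377 ± 151 in GFP, with log2 fold changes of 1.44 (adjusted p = 0.000445) and, in ileum, 1.00 (0.00421), both from edgeR. Rps29 turned over as well in ileum, to 1.25 (adjusted p = 0.000199), and Rpl28 was no longer called in colon (-0.20, adjusted p = 0.567). Rpsa kept its direction with a smaller change, 1.73 in colon and 1.07 in ileum, from 23.1 ± 0.384 to 76.7 ± 39.4 CPM in colon. Rpl39 was at 3.67 and 3.28 and Rps15a at 2.41 and 2.19. Rpl19 had 0.60 in colon and 0.13 in ileum, where it was no longer called (adjusted p = 0.609). Rps6 summed with 11 pseudogenes went from 9.26 ± 1.48 to 22.6 ± 5.08 CPM in colon and rose in both tissues (1.29 and 1.29), and Rpl5 summed rose in both as well (1.23 and 1.19).

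**Figure D5:**
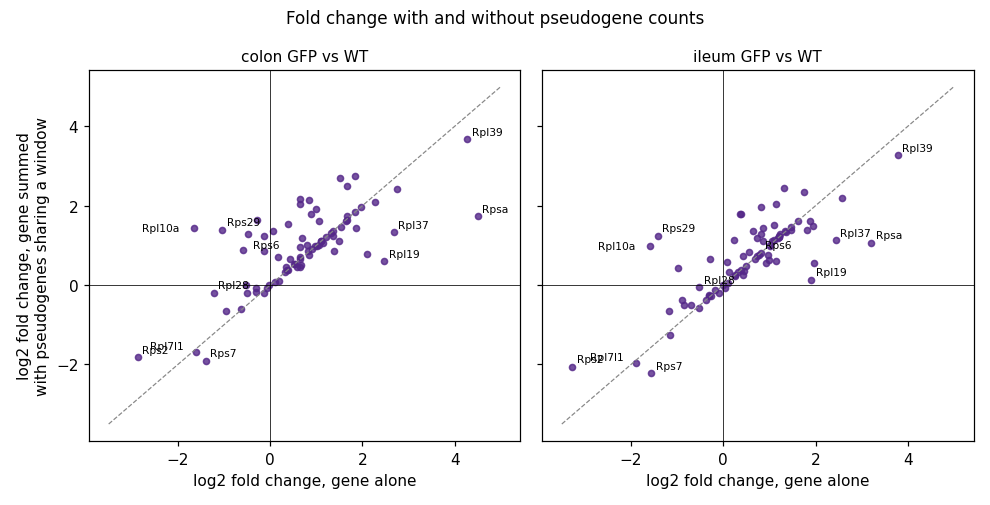
Each point is a gene, with the edgeR log2 fold change of GFP against WT from its own counts on the x axis and from its counts summed with pseudogenes sharing a window on the y axis, in colon and ileum; the dashed line marks equal values. Rpl10a and Rps29 lie at the upper left, Rpsa and Rpl19 lie below the line on the right, and Rps2, Rps7 and Rpl7l1 are at the lower left of both panels.

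Promoters of some of the genes described above that rose or fell in GFP cells are printed with runs of pyrimidines near the start marked. Of the 82 genes, 62 had a promoter in the RefSeq table (GRCm38.p6), which lists 250 bases before to 50 after each annotated start. Shown are the 50 bases before and 20 after the start, 5′ to 3′ on the strand of the gene, with capitals for the first run of a C followed by at least 4 C or T between 10 bases before and 20 after the start. By their own counts, Rpsa, Rpl39, Rps15a and Rpl37 rose in GFP cells, and Rps2, Rpl10a, Rpl7l1 and Rps7 fell. Summed with pseudogenes, Rpl10a rose in both tissues instead. Rpl10a has 2 starts in the table. They lie at chr9:120127716-120127785 (plus strand, Rpsa), chrX:37085203-37085272 (minus, Rpl39), chr7:118116128-118116197 (minus, Rps15a), chr15:5116563-5116632 (plus, Rpl37), chr17:24720013-24720082 (plus, Rps2), chr17:28328421-28328490 and chr17:28328515-28328584 (plus, Rpl10a starts 1 and 2), chr17:46782637-46782706 (minus, Rpl7l1) and chr12:28635934-28636003 (minus, Rps7).
Rpsa: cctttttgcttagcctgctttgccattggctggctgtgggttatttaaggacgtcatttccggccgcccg
Rpl39: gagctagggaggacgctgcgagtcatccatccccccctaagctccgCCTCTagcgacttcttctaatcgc
Rps15a: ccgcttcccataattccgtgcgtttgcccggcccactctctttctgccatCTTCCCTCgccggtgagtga
Rpl37: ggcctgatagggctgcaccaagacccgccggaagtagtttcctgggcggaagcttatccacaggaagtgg
Rps2: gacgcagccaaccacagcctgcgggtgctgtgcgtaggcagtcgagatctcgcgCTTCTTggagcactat
Rpl10a start 1: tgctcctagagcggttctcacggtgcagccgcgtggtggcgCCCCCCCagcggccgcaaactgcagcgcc
Rpl10a start 2: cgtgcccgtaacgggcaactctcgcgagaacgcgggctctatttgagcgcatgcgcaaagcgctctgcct
Rpl7l1: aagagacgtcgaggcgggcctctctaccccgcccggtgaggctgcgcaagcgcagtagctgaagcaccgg
Rps7: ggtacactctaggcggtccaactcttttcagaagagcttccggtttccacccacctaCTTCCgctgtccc

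Such a run was in Rpl39, Rps15a, Rps2, Rps7 and the first start of Rpl10a, and these letters were not in this window of Rpsa, Rpl37, Rpl7l1 or the second start of Rpl10a. The run lies wholly before the annotated start in the first start of Rpl10a and wholly after it in Rps2 and Rps7. It need not be the tract with which the messenger RNA begins, which was not tested. A run in this window was found in 42 of the 62 genes (67.7%), against 39.6% of all 27025 genes in the table. Of the genes that rose in colon GFP by their own counts, 19 of 30 with a promoter had it, and of those that fell, 5 of 6. These 6 include Rpl10a, which rose when summed with pseudogenes, and Rpl28, which was then no longer called. The motif CCGGAAG, the core bound by ETS factors, was in 40.3% of the 62 genes and 9.93% of all. The Sp1 box GGGCGG was in 62.9% and 38.2%, and TATAAA in 11.3% and 15.7%. These 3 motifs were searched on both strands over the whole listed stretch, each on its own, so that a base may lie in more than 1 of them.

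GFP cells of colon and ileum were then compared with each other, a comparison whose count of calls moved with 1 library. Of the 78, 3 were lower in colon and 0 higher, where 22.7% of all genes were called, 10.2% lower and 12.6% higher. Groups did not overlap for 1 gene higher and 5 lower in colon, against 18.4% and 16.2% of all genes. Rpl10, which joins the large subunit late in its assembly, was at 17.9, 14.5 and 14.5 CPM in colon GFP and 48.4, 21.6 and 28.9 in ileum GFP (log2 -1.07, SE 0.26, edgeR adjusted p = 0.0101). Rpl9 was at 19.4, 13.96 and 14.96 CPM in colon and 55.4, 24.7 and 22.0 in ileum (-1.07, adjusted p = 0.0234), and Rpl28 at 1.81, 1.62 and 1.35 in colon and 3.92, 2.94 and 2.86 in ileum (-1.002, adjusted p = 0.0253). Ileum GFP 1, the library with 52.3% of unique reads outside genes, was the highest for all 3, and the groups did not overlap. Without it Rpl10 had -0.69 (adjusted p = 0.0359), Rpl9 -0.54 (0.104) and Rpl28 -0.85 (0.0569). Summed with pseudogenes Rpl9 had -0.01 (0.977) and Rpl28 -0.13 (0.741). The calls of Rpl9 and Rpl28 were also lost without colon GFP 2 or colon GFP 3 (adjusted p from 0.0608 to 0.0872). Without colon GFP 1 the count changed to 11 higher and 5 lower in colon, 16 in all, where 14.2% of all genes were called higher and 11.9% lower, 26.0% in all. The effect of GFP against WT did not pass a test of difference between tissues for any of the 78 (2.24% of all genes called). Rpsa, with a difference of 1.30 (SE 0.53), was the 1 gene with an unadjusted p under 0.05, against 17.3% of all genes (adjusted p = 0.225), and DESeq2 called 0.

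As a share of gene counts without mitochondrially encoded genes, the 82 genes together made up 0.761 and 0.793% in colon WT, 0.766 and 0.715% in colon KO and 0.937, 1.17 and 1.59% in colon GFP. In ileum the shares were 0.729 and 0.834% in WT, 0.730 and 0.749% in KO and 1.18, 0.813 and 0.881% in GFP. Colon GFP lay above colon WT without overlap, while ileum GFP 2 lay below ileum WT 2. Group means were 0.777 ± 0.0223% (SD, n = 2), 0.741 ± 0.0363% (n = 2) and 1.23 ± 0.331% (n = 3) in colon and 0.782 ± 0.0742%, 0.739 ± 0.0138% and 0.958 ± 0.195% in ileum. As a share of all gene counts, mitochondrial RNA included, the mean of GFP was lower than that of WT in both tissues, at 0.700 ± 0.145% against 0.743 ± 0.0255% in colon and 0.626 ± 0.103% against 0.749 ± 0.0652% in ileum, but the libraries overlapped. Colon GFP 3, at 0.850%, lay above both colon WT libraries (0.725 and 0.761%), and ileum GFP 1, at 0.744%, above ileum WT 1 (0.703%). Without colon GFP 1 the colon GFP mean was 0.769%, above that of colon WT. GFP libraries also varied more: the median coefficient of variation of the 57 genes at 10 CPM or more was 25.3% in colon GFP and 15.8% in ileum GFP, and 4.31 to 8.28% in crypts. Over all genes at that level it was 16.2% and 17.4% in GFP and 5.97 to 9.65% in crypts. For the colon, the median of the 57 genes relative to WT was 0.38, 0.67 and 1.05 on the log2 scale in GFP 1, 2 and 3.

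Genes that work with ribosomal proteins were taken from lists, described here by counts. Beside each list stand the shares of all 15274 genes tested. Of these, 22.3% rose and 23.6% fell in colon GFP against WT, and 24.6% rose and 28.2% fell in ileum GFP. Among ribosomal proteins and partners under other symbols, Rack1, a scaffold on the small subunit, rose in colon GFP from 833 ± 4.90 to 1776 ± 638 CPM (log2 1.09, edgeR adjusted p = 0.0033). In ileum Rack1 was not called, at 893 ± 62.2 CPM in WT and 1260 ± 51.8 in GFP (log2 0.50, edgeR adjusted p = 0.106). Fau was called in neither tissue, with log2 fold changes of -0.32 and -0.71 (edgeR adjusted p = 0.56 and 0.173). Of 76 tested mitochondrial ribosomal protein genes, 32 rose and 8 fell in colon GFP and 13 rose and 19 fell in ileum GFP, with medians of 0.35 and -0.19. In colon 52.6% of them were called and in ileum 42.1%, against 45.9% and 52.8% of all genes. Among the mitochondrial ribosomal protein genes Mrpl17 rose by 1.83 and 1.52 on the log2 scale and Mrps34 fell by 3.18 and 2.85.

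Of 16 translation factors and other genes whose messenger RNAs carry the pyrimidine tract, 6 rose and 2 fell in colon GFP and 5 rose and 3 fell in ileum GFP. Eef1b2, Eef1d and Eef1g, the exchange factor subunits of elongation factor 1, rose in both tissues (log2 1.44, 1.13 and 1.07 in colon). Tpt1 fell by 2.66 and 2.52 and Btf3 by 0.41 and 0.49, while Eef1a1 was at 1162 CPM in colon WT and 1021 in GFP and was not called (adjusted p = 0.435). Of 45 ribosome biogenesis genes, 5 rose and 17 fell in colon GFP and 4 rose and 22 fell in ileum GFP, with medians of -0.40 and -0.42. Nolc1, Ddx21 and Ubtf, which act in the nucleolus, fell in both tissues (log2 -1.23, -1.23 and -1.02 in colon), and Nop10 rose by 2.40 and 1.84. In WT crypts 18 of the 45 were lower and 1 higher in colon than in ileum, where 19.9% of all genes were called. None of the 78 ribosomal protein genes was called in that comparison.

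Of 7 genes of p53 and the ribosomal stress response, 3 rose and 2 fell in colon GFP and 4 rose and 2 fell in ileum GFP. Trp53, Mdm2 and Ccng1 rose in both, Trp53 by 1.17 and 0.86 and Ccng1 by 1.05 and 0.83 on the log2 scale. Bbc3, a p53 target that promotes cell death, fell by 1.95 and 1.44. Of 13 genes of growth control of translation, 2 rose in colon GFP and 1 in ileum GFP. Eif4ebp2, a repressor of cap-dependent initiation, rose in both, by 1.10 and 1.25. Of 5 tested chaperones of ribosomal proteins, 1 fell in each tissue and 0 rose. In KO against WT crypts, 0 of the 165 tested genes of these lists and of the ribosomal protein chaperones were called by edgeR or by DESeq2 in either tissue. An unadjusted p under 0.05 was found by edgeR for 5 of them in colon and 7 in ileum, against 7.69% and 13.4% of all genes. Of all genes, edgeR called 0.153% in colon and 1.22% in ileum.

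Over 14 libraries, the mean log2 CPM of the 73 canonical genes ran from 4.31 to 4.59 in crypts and from 4.83 to 5.33 in GFP libraries. Among 9069 other genes at 10 CPM or more, those most correlated with that mean were Gm4149 (Pearson's r = 0.973), Trp53 (0.972), Tyms (0.971), Mettl23 (0.971) and Lars2 (0.97), all over 14 points that share the difference between GFP and crypt libraries.

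Markers of other cells moved with the GFP comparisons. Of all genes tested, 22.3% rose and 23.6% fell in colon GFP against WT, and 24.6% rose and 28.2% fell in ileum GFP. Of 8 immune markers 7 were lower in colon GFP and 6 in ileum GFP, with summed levels of 6.36 to 130 CPM in colon GFP, 1375 to 1770 in colon WT, 199 to 554 in ileum GFP and 544 to 2439 in ileum WT. Of 7 stroma markers 6 and 7 were lower, at a summed 1.81 to 7.73 CPM in GFP libraries and 40.4 to 103 in WT. Cd74 made up most of the immune sum in GFP libraries, Jchain was at 0 in 4 of the 6 and at most 0.143 CPM, and Acta2 was at 0 in 2 and at most 0.374 CPM. Of 8 absorptive markers 4 were lower in colon GFP and 6 in ileum GFP, where 1 was higher. Of 7 proliferation markers 5 were higher and 1 lower in colon GFP, and 1 higher and 2 lower in ileum GFP. Of 8 genes induced by dissociation 4 were higher in colon GFP and 6 in ileum GFP, with 2 lower in each. Of 6 Paneth markers 2 were called higher in colon GFP and 0 in ileum GFP. In ileum their summed level was 56260 to 81220 CPM in GFP and 10110 to 31870 in WT, and 5 of the 6 had a log2 fold change above 0. The smallest adjusted p there was 0.11 in edgeR. In colon the sums overlapped, at 152 to 2339 CPM in GFP and 81.8 to 438 in WT. Of 4 tuft and 5 stem cell markers, 3 tuft markers were lower in ileum GFP and none of the others was called. The part of these cells and of dissociation in the ribosomal protein results was not tested.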

How the data were processed

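The authors deposited 1 table of read counts per gene for each of 14 libraries, per the file headers and values unnormalised counts with alignment classes appended. Per the submitters' processing notes, TopHat 1.4.1 and HTSeq were used with mouse build mm9. Not given in the sources used here are the annotation and the strand setting. Alignments with several sites are 1 of the appended classes and stand apart from the gene rows. RNA was extracted with Trizol and RNeasy columns and made into Illumina libraries, per the labels' protocols.

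Symbols, gene types, lengths and GC content came from GENCODE M21 (GRCm38), which matched 31004 of 36536 gene IDs, and no coordinates were transferred between builds. Rows that name no gene were left out of library sizes. After the low-count filter of edgeR 4.0.16 (filterByExpr, R 4.3.3), counts were scaled by TMM and tested with its robust quasi-likelihood F-test, and p-values were adjusted by Benjamini-Hochberg over all genes tested. A gene was called at an adjusted p under 0.05. Alternatives included DESeq2 1.42.0. KO and tissue contrasts used the 8 crypt libraries (14415 genes) and GFP contrasts all 14 (15274 genes). CPM values are counts scaled with those TMM factors. Genes named with values are the up to 5 called in each direction with the largest change, the highest and lowest per kb, the paralogues with partners, the stalk proteins, Rpsa, Rps6, Rps19, Rpl5, Rpl11 and Rps27a, and up to 4 called genes per other list. Others, such as Rpl32, Rpl13, Rpl7a, Rpl13a and Rpl30, were added after their values were seen. The ribosomal protein genes, the other lists and the tests were chosen with earlier results of these data known. Chi-square per gene between replicates was 11.2 to 92.9, so no pair of libraries was treated as 1. Deviations of same-numbered colon and ileum crypt libraries from their group means correlated at 0.26 in WT and 0.29 in KO (with 2 libraries a group, numbers 1 and 2 give the same value), so the numbers were taken as pairs between tissues in crypts, from the data and not the labels. The main fits held no term for these pairs, so the p-values printed between tissues do not use them. A replicate block within genotype was fitted as an alternative. Scripts were tested on simulated data. Colon GFP against WT and colon KO against WT share their WT libraries, as do the ileum contrasts. Values of 1 ribosomal protein gene and of 1 gene of another list are not reported here, though counts over the lists include them.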

Additional observations from a re-analysis of the deposited data

Results flagged for a closer look

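Named pseudogenes of ribosomal protein genes, which entered none of the counts of the 82 genes, took 0.24% of gene counts without mitochondrially encoded genes in colon GFP and 0.187% in ileum GFP (means of 3 libraries). In WT crypts they took 0.115% in each tissue. These 2 values are listed because signal outside the measured genes exceeded that in the controls. Groups of 2 or 3 libraries are too small for a check of single outlying libraries.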

How the results depend on the processing

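Of 46 genes called in colon GFP against WT, 33 stayed called under all 13 alternatives chosen at the start, and of 45 in ileum 27 did, with 0 changes of sign. Leaving out 1 library moved these counts to 33 to 49 and 33 to 46. Restricting to genes with at least 50% unique windows left 19 and 21 of 31. KO against WT in ileum gave 0 to 1 and WT colon against ileum 0 to 2, the highest values without ileum WT 1. The GFP effect between tissues gave 1 without a filter, which also moved the median of all genes to 0.33 in colon GFP against WT. GFP colon against ileum (3 genes) gave 6 without a filter, 5 with DESeq2 and 1 summed with pseudogenes, and 1 to 16 with 1 library left out, the 16 without colon GFP 1. Summed with pseudogenes, Rpl10a reversed to 1.44 in colon and 1.00 in ileum and Rps29 to 1.25 in ileum, by adding the pseudogenes' counts. The share of counts was 0.743, 0.700, 0.713 and 0.626% of all gene counts in colon WT, colon GFP, ileum KO and ileum GFP. Of counts without mitochondrially encoded genes, adding named pseudogenes took the share from 0.777 to 0.892% in colon WT, 0.741 to 0.853% in colon KO, 1.23 to 1.47% in colon GFP, 0.782 to 0.896% in ileum WT, 0.739 to 0.848% in ileum KO and 0.958 to 1.14% in ileum GFP. For other changes the cause was not tested. Few counts limit genes such as Rps6 and Rpl19.

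The replicate block gave 40 calls in colon GFP (33 higher, 7 lower), 44 in ileum GFP (33 and 11), 5 in GFP colon against ileum and 0 in the other comparisons. Deviations of same-numbered libraries correlated from -0.09 to 0.08 between KO and WT of a tissue, GFP and WT or the GFP groups, so the numbers are not taken as pairs there. Between colon and ileum crypts they are, and the replicate block within genotype changed no call: it gave 0 for WT colon against ileum and for the KO effect between tissues.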
